A study of Mus musculus with 9 samples.

Results

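The AP-1 family transcription factors were followed in RNA-seq counts of mouse bone marrow-derived dendritic cells (DCs). The members were the 10 genes *Fos*, *Fosb*, *Fosl2*, *Jun*, *Junb*, *Jund*, *Batf*, *Batf2*, *Batf3* and *Atf3*, taken by symbol from the 55471 genes counted, and each symbol matched 1 gene. All DCs were WT, grown from bone marrow with GM-CSF, and harvested 6 h after being left unstimulated, activated with LPS (100 ng/mL) or treated with IFN-β (1000 U/mL). Per the study's methods the bone marrow came from female C57BL/6 mice of 8 to 20 weeks. Each condition had 3 libraries, lettered A, B and C, and neither the labels nor the methods say whether a letter stands for 1 mouse or 1 culture. P-values therefore measure the spread between these libraries, which may be technical in part. LPS, a lipid of Gram-negative bacteria, is sensed through TLR4, and IFN-β signals through the type I interferon receptor.

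AP-1 is a dimer of basic leucine zipper (bZIP) proteins that binds short DNA motifs. Fos proteins bind DNA only with a partner, usually a Jun protein, while Jun proteins can also pair with each other. The Batf proteins are short bZIP factors that pair with Jun proteins and, together with IRF4 or IRF8, bind composite elements. Batf3 is known for its part in the development of type 1 conventional DCs, and Atf3 is a stress-induced factor that can repress cytokine genes in Toll-like receptor signalling. *Fos*, *Fosb*, *Jun* and *Junb* are classical immediate-early genes, whose transcripts rise and fall within hours of a stimulus, so a sample at 6 h shows 1 point of that course.

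Total counts per library were 33425803 to 43735199, and 16260 genes passed the filter on low counts, all 10 members among them. Expression is given as CPM, a gene's counts scaled to a common library size with TMM factors. Changes are log2 fold changes from edgeR's quasi-likelihood test with their standard error (SE), and a gene was called at an adjusted p-value under 0.05. All 10 markers of DCs and macrophages that were examined exceeded 1 CPM in each condition. No marker of T cells, B cells, natural killer cells, mast cells or erythroid cells had a mean above 1 CPM in any condition, and 4 fibroblast markers summed to at most 6.76 CPM.

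To show the DNA next to the starts of members that responded in different directions, the 250 bases before the RefSeq start (GRCm38.p6) are printed 5′ to 3′ on the coding strand for *Fos* and *Jun*, whose transcripts fell with LPS, and for *Batf* and *Atf3*, whose transcripts rose. They lie at chr12:85473640-85473889 (*Fos*, plus strand), chr4:95052223-95052472 (*Jun*, minus strand), chr12:85686470-85686719 (*Batf*, plus strand) and chr1:191183334-191183583 (*Atf3*, minus strand). The *Atf3* bases lie inside its gene model, chr1:191170296-191218039, and so stand for only 1 of its possible starts. Capitals mark matches to the motifs searched.
Fos: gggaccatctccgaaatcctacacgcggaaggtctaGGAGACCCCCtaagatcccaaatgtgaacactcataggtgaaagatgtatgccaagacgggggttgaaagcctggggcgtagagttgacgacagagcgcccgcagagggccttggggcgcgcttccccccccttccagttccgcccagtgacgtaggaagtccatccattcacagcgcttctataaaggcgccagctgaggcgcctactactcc
Jun: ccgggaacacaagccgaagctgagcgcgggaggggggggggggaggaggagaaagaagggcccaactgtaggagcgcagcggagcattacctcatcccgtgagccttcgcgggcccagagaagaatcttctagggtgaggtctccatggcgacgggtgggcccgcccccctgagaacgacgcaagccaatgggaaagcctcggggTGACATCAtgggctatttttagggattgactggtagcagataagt
Batf: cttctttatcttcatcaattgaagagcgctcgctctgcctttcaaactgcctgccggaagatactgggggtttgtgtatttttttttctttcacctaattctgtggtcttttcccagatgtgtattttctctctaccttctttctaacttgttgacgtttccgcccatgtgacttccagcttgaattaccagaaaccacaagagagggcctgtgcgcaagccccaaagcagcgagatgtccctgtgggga
Atf3: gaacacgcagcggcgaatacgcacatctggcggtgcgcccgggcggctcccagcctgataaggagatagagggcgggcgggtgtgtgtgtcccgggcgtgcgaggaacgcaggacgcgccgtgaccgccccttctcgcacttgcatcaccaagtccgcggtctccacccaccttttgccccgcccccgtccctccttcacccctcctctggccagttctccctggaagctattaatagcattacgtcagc

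Windows of 300 bases, from 250 before to 50 after the start, were held for 9 members, and *Batf2* had no entry. The RefSeq start used need not be the start of the gene model in GENCODE M21. The 250 bases of *Jund* end at chr8:70697738, before its model begins at 70698949. Those of *Fosl2*, *Batf3* and *Atf3* lie inside their gene models. Both strands were searched for the AP-1 site TGACTCA, the cyclic AMP response element TGACGTCA, the *Jun* promoter variant TGACATCA, the STAT motif TTCNNNGAA, the interferon response motif GAAANNGAA, the CArG box and the κB site. *Jun* held TGACATCA, 45 bases before its start, a motif found in 3.62% of 32851 windows. No member window held TGACTCA, which 5.2% of all windows did, or TGACGTCA, which 1.79% did. The κB site was matched in *Fos*, 214 bases before the start, and in *Fosb* and *Fosl2*, and 8.46% of all windows had a match. GAAANNGAA was matched in *Fosl2* and *Jund* (8.56% of all windows) and TTCNNNGAA in *Batf3* (8.3%), and no member window had a CArG box (1.63%). The *Batf*, *Atf3* and *Junb* windows matched none of these motifs. For every member and motif, the CArG box included, a missing match says only that these letters are not in the window. Bases more than 250 before the start were not searched.

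LPS changed 8 of the 10 members, 4 upward and 4 downward. *Batf2*, *Batf*, *Atf3* and *Junb* rose, and *Fos*, *Jun*, *Batf3* and *Fosl2* fell. Of all genes tested, 68.2% were called in this comparison, 32.8% higher and 35.4% lower, so that a call in a member was no rarity. IFN-β changed 5 members: *Batf2*, *Atf3* and *Junb* rose and *Batf* and *Fosl2* fell, where 46.9% of all genes were called, 23.6% higher and 23.3% lower. The response to IFN-β differed from that to LPS for 8 members, with 3 higher and 5 lower under IFN-β. The background of that comparison was 49.1%, 25.8% higher and 23.3% lower. Taken without sign, the members had a median log2 change of 1.40 with LPS and 0.34 with IFN-β, against 0.65 and 0.35 over all genes tested. Both stimuli were compared with the same 3 unstimulated libraries, so their values stand side by side and are not independent.

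**Figure D1:**
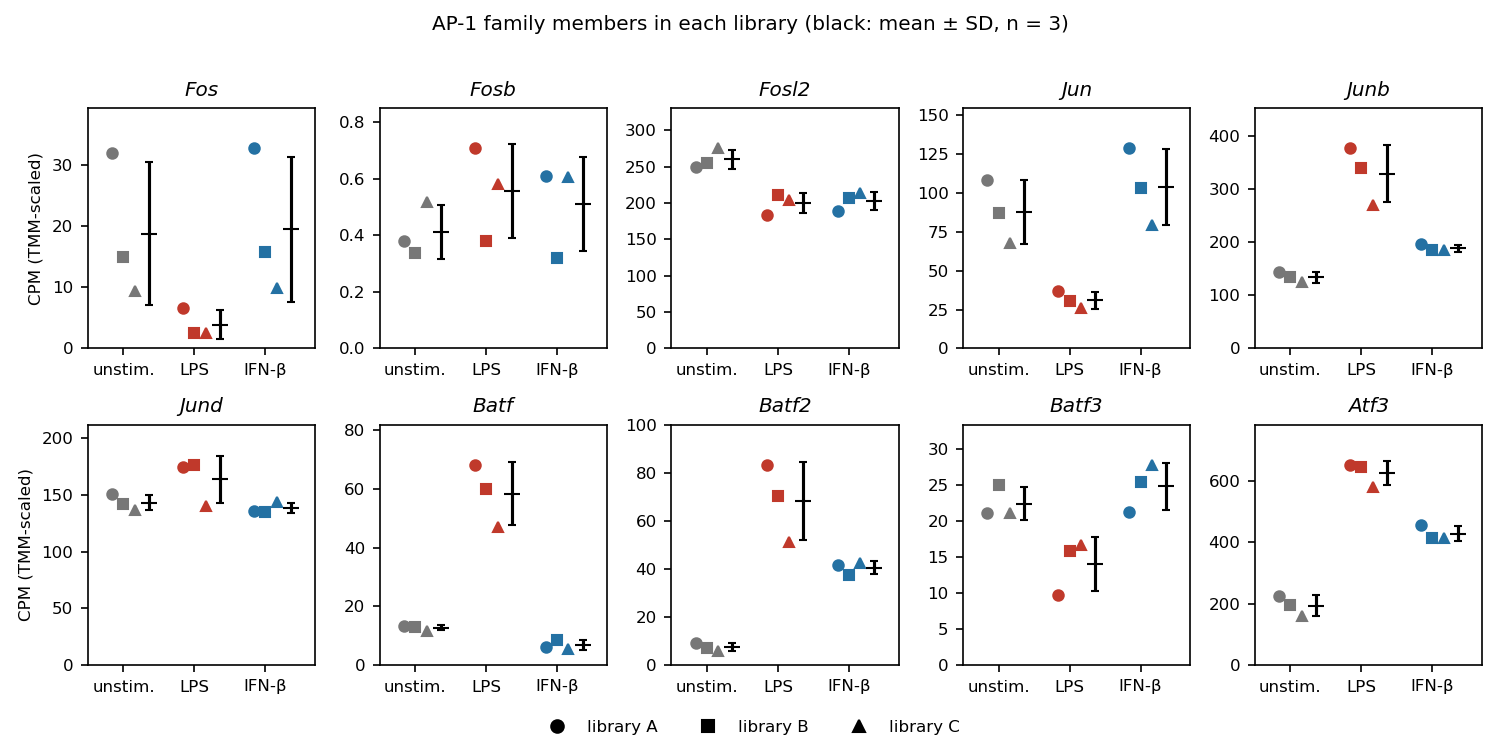
CPM of each AP-1 family member (vertical axis, starting at 0) in the 3 libraries of each condition, with symbols for the letters and a black bar for the mean ± SD (n = 3). The LPS libraries of *Fos* and *Jun* lie below all others, those of *Batf*, *Batf2*, *Junb* and *Atf3* lie above all others, and *Batf* under IFN-β lies below its unstimulated level.

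The Fos proteins came first. *Fos* was read at 32.0, 15.1 and 9.48 CPM in unstimulated libraries A, B and C, at 6.65, 2.59 and 2.49 CPM with LPS and at 32.8, 15.8 and 9.94 CPM with IFN-β. Every LPS library lay below every other library, while the unstimulated and IFN-β libraries overlapped. With LPS *Fos* fell by 2.29 on the log2 scale (SE 0.58, 4.87-fold, edgeR adjusted p = 0.00461). With IFN-β the log2 fold change was 0.06 (95% interval -1.07 to 1.19, adjusted p = 0.937). With the letters as a replicate block it was 0.06 with a smaller SE of 0.09 (adjusted p = 0.593). *Fos* was 2.35 higher on the log2 scale under IFN-β than under LPS (SE 0.58, adjusted p = 0.00636). In these bulk libraries fewer cells of a type and less RNA per cell cannot be told apart.

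*Fosb*, a close relative of *Fos*, was the rarest member, with 12 to 26 counts per library. Its CPM was 0.38, 0.337 and 0.519 unstimulated, 0.708, 0.379 and 0.584 with LPS and 0.609, 0.319 and 0.608 with IFN-β, and the groups overlapped. Its log2 fold change was 0.41 with LPS (95% interval -0.35 to 1.18) and 0.31 with IFN-β (-0.44 to 1.06), and neither was called. A change within these intervals is not excluded by these libraries.

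*Fosl2*, which encodes Fra-2, was by contrast the most abundant transcript of the Fos proteins in every library. It stood at 250, 255 and 275 CPM in unstimulated DCs, 184, 210 and 204 CPM with LPS and 189, 206 and 214 CPM with IFN-β. Both stimulated groups lay below the unstimulated libraries and overlapped with each other. *Fosl2* fell by 0.38 on the log2 scale with LPS (SE 0.08, adjusted p = 0.0011) and by 0.36 with IFN-β (SE 0.08, adjusted p = 0.00319). The difference between the stimuli was 0.02 (95% interval -0.15 to 0.20), and 0.30 by library size alone, where it was called (adjusted p = 0.0192). *Fosl2* was thus the member that fell with both stimuli. Its paralog *Fosl1* (Fra-1), listed with the other bZIP genes and named after its values were seen, had a log2 fold change of -0.81 with LPS (adjusted p = 0.00161) and -0.69 with IFN-β (adjusted p = 0.00618) at 1.2 to 2.56 CPM.

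Among the Jun proteins, *Jun* followed the pattern of *Fos*. It was read at 108, 87.2 and 67.6 CPM in unstimulated DCs, 36.6, 30.2 and 26.1 CPM with LPS and 129, 103 and 79.5 CPM with IFN-β. The LPS libraries again lay below all the others. *Jun* fell by 1.50 on the log2 scale with LPS (SE 0.21, 2.84-fold, adjusted p = 7.0e-05), and it was 1.75 higher under IFN-β than under LPS (SE 0.21, adjusted p = 5.3e-05). With IFN-β the log2 fold change was 0.24 (95% interval -0.20 to 0.68, adjusted p = 0.349). Libraries of the same letter gave nearly equal log2 ratios of IFN-β to unstimulated, 0.25 for A, 0.24 for B and 0.23 for C. With the letters as a replicate block the log2 fold change was 0.24 at an adjusted p = 0.00187, so the call depended on the pairing of the libraries. It depended on the scaling too: by library size alone the value was -0.06 (adjusted p = 0.795).

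*Junb*, whose product can oppose that of *Jun*, moved the other way with LPS. Its CPM was 145, 134 and 124 in unstimulated DCs, 377, 340 and 271 with LPS and 196, 185 and 185 with IFN-β, and the 3 groups did not overlap. *Junb* rose by 1.29 on the log2 scale with LPS (SE 0.11, 2.45-fold, adjusted p = 2.0e-06) and by 0.49 with IFN-β (SE 0.11, 1.40-fold, adjusted p = 0.00422). Scaled by library size alone, the IFN-β value was 0.19 and was not called (adjusted p = 0.103). The response to IFN-β was 0.80 lower than that to LPS (log2 difference -0.80, SE 0.11, adjusted p = 0.000154).

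*Jund*, the Jun gene usually described as constitutive, moved least of the Jun genes. Its CPM was 151, 142 and 137 in unstimulated DCs, 175, 176 and 140 with LPS and 136, 135 and 143 with IFN-β, so that LPS library C lay among the unstimulated libraries. The log2 fold change was 0.19 with LPS (95% interval -0.01 to 0.39, adjusted p = 0.077) and -0.05 with IFN-β (-0.25 to 0.15, adjusted p = 0.663). The LPS value was called with the letters as a replicate block (0.19, adjusted p = 0.0338) and without LPS library C (0.29, adjusted p = 0.00387), as it was by DESeq2 (0.23, adjusted p = 0.0374), while upper-quartile factors put it at 0.099 (adjusted p = 0.298). Scaling by library size alone turned it to -0.39 (adjusted p = 0.000841) and put the IFN-β value at -0.36, which was then called (adjusted p = 0.0026). *Jund* was 0.25 lower on the log2 scale under IFN-β than under LPS (adjusted p = 0.0421), with overlapping libraries, and that call was lost without any 1 of 6 libraries.

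Several of these values moved with the scaling of the libraries. Without TMM factors, by library size alone, the middle of the distribution over all genes shifted by -0.58 (log2) with LPS and -0.31 with IFN-β. The share of called genes that were higher then dropped from 48.1% to 21.9% with LPS and from 50.3% to 22.3% with IFN-β, and rose from 52.5% to 77.9% between the stimuli. Changes of the members are to be read relative to that shift. Under it 9 members were called with LPS, 4 higher and 5 lower, and 5 with IFN-β, 2 higher and 3 lower, where 78.0% and 59.2% of all genes were called.

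**Figure D2:**
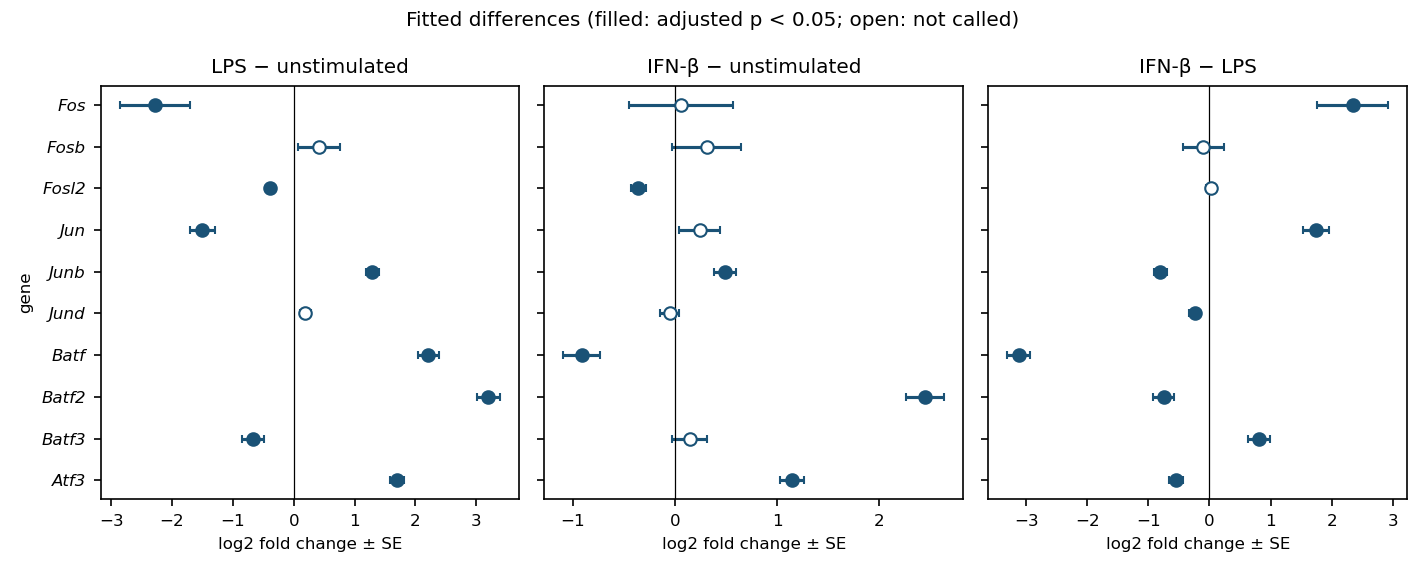
Log2 fold change (horizontal axis) with its SE from edgeR for the 10 members (rows) in 3 panels: LPS and IFN-β, each compared with unstimulated DCs, and then IFN-β compared with LPS. Filled points were called, and *Batf* stands at 2.21 with LPS and at -0.91 with IFN-β.

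The Batf proteins gave the widest range of responses. *Batf* was read at 13.2, 13.0 and 11.6 CPM in unstimulated DCs, 68.1, 60.0 and 47.0 CPM with LPS and 6.11, 8.63 and 5.33 CPM with IFN-β. All 3 groups were separate, with LPS above and IFN-β below the unstimulated libraries. *Batf* rose by 2.21 on the log2 scale with LPS (SE 0.17, 4.63-fold, adjusted p = 9.3e-07) and fell by 0.91 with IFN-β (SE 0.18, 1.88-fold, adjusted p = 0.00182). The difference between the stimuli was -3.13 (SE 0.18, 8.72-fold, adjusted p = 3.4e-07), the widest of the 10 members. *Batf* was the member called in opposite directions by the 2 stimuli.

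*Batf2*, known as an interferon-inducible member, rose with both. Its CPM was 9.20, 7.23 and 5.96 in unstimulated DCs, 83.5, 70.4 and 51.4 with LPS and 41.6, 37.8 and 42.7 with IFN-β, with no overlap between groups. The log2 fold change was 3.20 with LPS (SE 0.19, 9.18-fold, adjusted p = 1.3e-07) and 2.45 with IFN-β (SE 0.19, 5.46-fold, adjusted p = 5.0e-06). Both were the highest of the 10 members. Under IFN-β it was 0.75 lower than under LPS (log2 difference -0.75, SE 0.17, adjusted p = 0.00447).

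*Batf3* went down with LPS. It was read at 21.1, 25.0 and 21.1 CPM in unstimulated DCs, 9.73, 15.8 and 16.6 CPM with LPS and 21.2, 25.3 and 27.7 CPM with IFN-β. The LPS libraries lay below all others, and the other groups overlapped. *Batf3* fell by 0.67 on the log2 scale with LPS (SE 0.18, 1.59-fold, adjusted p = 0.00633). The IFN-β value was 0.14 (95% interval -0.24 to 0.53), and *Batf3* was 0.81 higher under IFN-β than under LPS (SE 0.18, adjusted p = 0.00329). The summed CPM of 7 markers of type 1 conventional DCs was 645 to 711 in unstimulated libraries, 421 to 515 with LPS and 717 to 796 with IFN-β. *Naaa* (384 to 419, 139 to 159 and 334 to 379 CPM) and *Wdfy4* (231 to 275, 128 to 133 and 248 to 281 CPM) made up most of the unstimulated sum. *Tlr3* went the other way with LPS, from 8.73 to 15.0 CPM unstimulated to 145 to 221 CPM, and was at 96.0 CPM or above with IFN-β. Of these markers 5, 4 and 6 exceeded 1 CPM in the 3 conditions, *Clec9a* lay at 10.1 to 16.2, 2.92 to 5.10 and 18.7 to 24.8 CPM, and *Xcr1* stayed under 1 CPM, at 0 to 0.135 CPM unstimulated (0 counts in library C) and 0.553 to 0.920 CPM with LPS. Their part in the *Batf3* result was not tested.

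*Atf3* had the highest CPM per kb of exon of all members in each condition. Its CPM was 226, 195 and 161 in unstimulated DCs, 653, 646 and 582 with LPS and 458, 413 and 416 with IFN-β, with no overlap. *Atf3* rose by 1.69 on the log2 scale with LPS (SE 0.12, 3.23-fold, adjusted p = 3.9e-07) and by 1.15 with IFN-β (SE 0.12, 2.21-fold, adjusted p = 2.7e-05). The IFN-β response was lower than the LPS response by a log2 difference of -0.55 (SE 0.12, adjusted p = 0.00253). Exact permutation tests of 3 against 3 libraries, two-sided, gave p = 0.1, the smallest such a test allows, for each called difference of a member except *Jund* between the stimuli (p = 0.2).

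Genes were compared with each other per kb of annotated exon. In unstimulated DCs *Atf3* (90.0 ± 15.3 CPM per kb, SD, n = 3) and *Jund* (85.9 ± 4.18) came first and overlapped, followed by *Junb* (58.3 ± 4.40). *Jun* (27.5 ± 6.40) and *Fosl2* (26.9 ± 1.36) overlapped, as did *Batf* (8.97 ± 0.60) and *Fos* (8.01 ± 4.98), with *Batf3* (14.0 ± 1.42) between those pairs. *Batf2* (2.96 ± 0.65) and *Fosb* (0.066 ± 0.015) came last. With LPS the order was *Atf3* (291 ± 18.1), *Junb* (143 ± 23.4), *Jund* (98.1 ± 12.3), *Batf* (41.5 ± 7.59) and *Batf2* (27.1 ± 6.40), and of these neighbours none overlapped. *Fos* (1.66 ± 1.01) dropped to the place before *Fosb*. With IFN-β *Atf3* (199 ± 11.6) led, and *Batf* (4.76 ± 1.23) stood behind *Fos* (8.30 ± 5.04) with overlapping libraries.

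As shares of the summed level of the 10 members, which do not depend on the scaling between libraries, the Fos proteins took 10.8% ± 0.56 (SD, n = 3) before stimulation, 3.51% ± 0.39 with LPS and 6.34% ± 0.51 with IFN-β. The Jun proteins took 53.3% ± 1.16, 39.0% ± 1.75 and 42.7% ± 0.24. The Batf proteins took 8.08% ± 0.67, 12.0% ± 0.66 and 7.90% ± 0.79. *Atf3* alone took 27.8% ± 1.77, 45.5% ± 2.02 and 43.1% ± 0.51. For each of these shares the stimulated libraries lay outside the unstimulated range (p = 0.1, the lowest value open to a two-sided exact permutation test of 3 against 3), except the Batf proteins with IFN-β (exact p = 0.6). That exception rested on the division by length: without it the Batf proteins took 4.55% to 5.18% in unstimulated DCs, 8.58% to 10.1% with LPS and 5.70% to 6.74% with IFN-β, with no overlap (exact p = 0.1). Per kb, *Batf2* stood at 0.91% in unstimulated DCs and 3.49% with IFN-β, and *Batf* at 2.79% and 1.03%. The summed level itself was 323 ± 34.9 CPM per kb before stimulation, against 642 ± 66.5 in LPS-activated and 462 ± 21.9 in IFN-β-treated DCs.

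**Figure D3:**
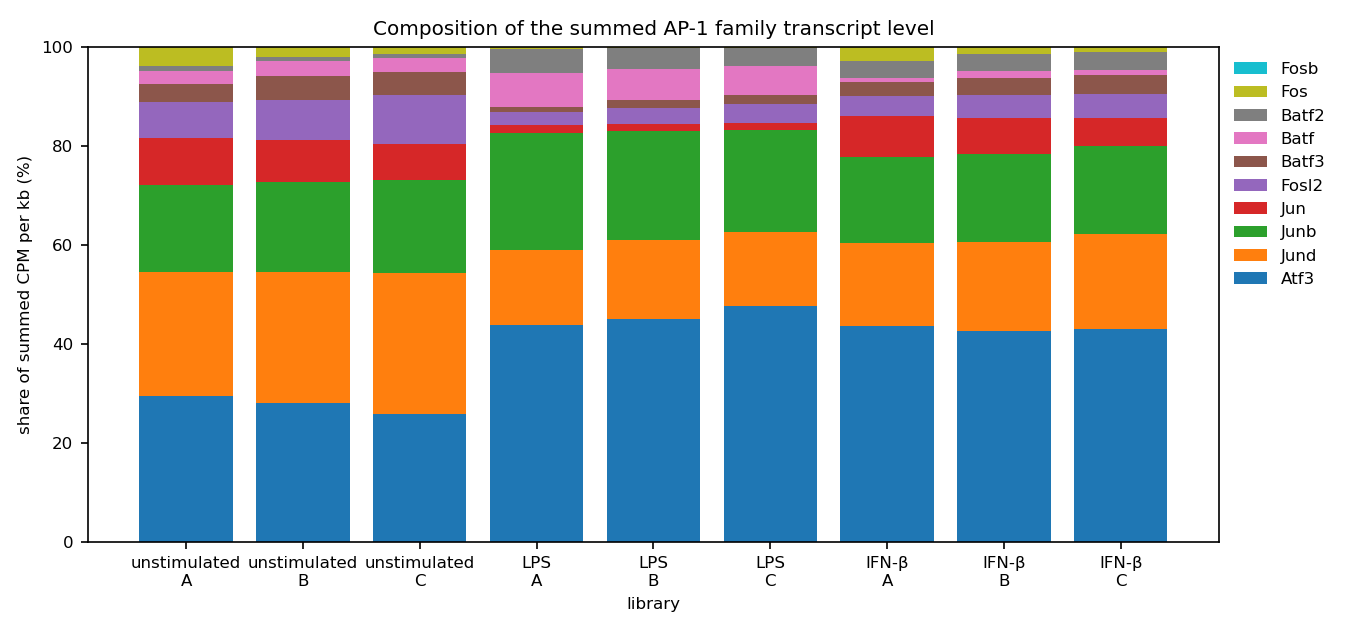
Share of each member (colours) in the summed CPM per kb of the 10 members (vertical axis, percent) in each of the 9 libraries. The *Atf3* share lies at 25.9% to 29.4% in the unstimulated libraries and at 42.6% to 47.7% in the stimulated ones, and the *Jun* share is 1.42% to 1.66% with LPS.

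The members lie on chromosomes 1, 4, 5, 7, 8, 12 and 19 (GRCm38, GENCODE M21). *Fos* (chr12:85473890-85477273, plus strand) and *Batf* (chr12:85686669-85709087, plus strand) are separated by 209 kb, with *Jdp2*, a bZIP repressor of AP-1, as the 1 protein-coding gene wholly between them. With LPS *Fos* fell while *Batf* rose, and *Jdp2*, named for its place after its values were seen, was read at 4.31, 4.60 and 4.87 CPM unstimulated and 9.48, 8.27 and 6.97 CPM with LPS. Its log2 fold change was 0.84 (adjusted p = 0.000136), and 0.25 (adjusted p = 0.0908) with scaling by library size alone. *Batf3* (chr1:191097847-191108945, plus strand) and *Atf3* (chr1:191170296-191218039, minus strand) lie 61.4 kb apart, and with LPS *Batf3* fell and *Atf3* rose. *Jun* (chr4:95049034-95052222) is a single exon that shares 232 bases with the antisense gene *Junos*, and *Jund* (chr8:70698949-70700616) is a single exon that shares 877 bases, 52.6% of its length, with the antisense *Gm11175*. *Junb* shares 173 exon bases with *Prdx2* on the opposite strand and *Batf2* shares 51 with *Arl2*. The strand setting of the counting was not given, so reads in those bases cannot be assigned with certainty. Over the 9 libraries *Prdx2* had 48094 counts, *Junos* 3786, *Arl2* 2527 and *Gm11175* 527. *Prdx2* itself was called higher with LPS (log2 fold change 0.55, adjusted p = 6.0e-05) and with IFN-β (0.39, adjusted p = 0.00156), and its part in the *Junb* values was not tested.

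The libraries of 1 letter tended to deviate together, and *Fos* and *Jun* showed this clearly. In every condition *Fos* and *Jun* were highest in library A and lowest in library C. *Fos* differed by 3.38-fold between A and C in unstimulated DCs, 2.67-fold with LPS and 3.30-fold with IFN-β. In a fit with condition and letter, a test chosen after seeing the data, *Fos* was 1.12 lower in B and 1.68 lower in C than in A on the log2 scale (log2 differences -1.12 and -1.68, adjusted p = 4.3e-07). The corresponding *Jun* differences were -0.31 and -0.63 (adjusted p = 2.6e-05). These were the 2 of 10 members called, where 13.3% of all genes were. With scaling by library size alone 4 members were called, and the share over all genes was not computed for that scaling. Of 19 other immediate-early genes 10 were called, in mixed directions: *Klf4* was at -1.04 and *Zfp36* at -0.58 in C against A, but *Egr3* was at 0.76 and *Myc* at 0.42.

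Markers of several cell types moved with the letters as well. *Adgre1* and *Cd86*, markers of DCs and macrophages, were highest in library A and lowest in C of each condition. So were *Itgam* and *Flt3*, and *Clec9a* and *Cadm1* of the type 1 conventional DC markers. In unstimulated libraries A, B and C *Adgre1*, *Cd86* and *Clec9a* were at 212, 140 and 121, at 64.7, 49.7 and 38.4, and at 16.2, 13.05 and 10.1 CPM. *Zbtb46* went the other way in each condition (27.8, 32.9 and 36.8 CPM unstimulated), as did the type 1 marker *Wdfy4* (231, 236 and 275 CPM). *Itgax* was lowest in A with LPS (1508, 1673 and 1625 CPM) and with IFN-β (1359, 1510 and 1586 CPM). The remaining markers of both lists had no single order over the conditions. Some markers of neutrophils were also highest in A. *S100a9* was read at 6.06, 2.09 and 1.02 CPM in unstimulated libraries A, B and C, 5.77, 1.46 and 0.768 CPM with LPS and 5.08, 1.81 and 0.829 CPM with IFN-β, and *Ngp* and *Ltf* were likewise highest in library A of each condition. *S100a8* and *Mmp8*, which made up nearly all of the summed CPM, were also highest in A but lowest in B, unlike *Fos* and *Jun*: in unstimulated libraries A, B and C *S100a8* was at 13.2, 6.85 and 10.0 CPM and *Mmp8* at 460, 359 and 444 CPM. Of the 9 neutrophil markers 3, 4 and 4 exceeded 1 CPM in unstimulated, LPS and IFN-β libraries, with summed CPM of 369 to 483, 249 to 327 and 338 to 433, and *Ly6g* and *Elane* were at or near 0. The part of any of these markers in the letter differences was not tested. With the 3 libraries lettered A left out of all conditions alike, *Fos* fell by 2.27 on the log2 scale with LPS (SE 0.29, adjusted p = 0.000151) and *Jun* fell by 1.46 (SE 0.16, adjusted p = 5.0e-05). A change in the mix of cells with LPS is not tested by leaving them out.

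**Figure D4:**
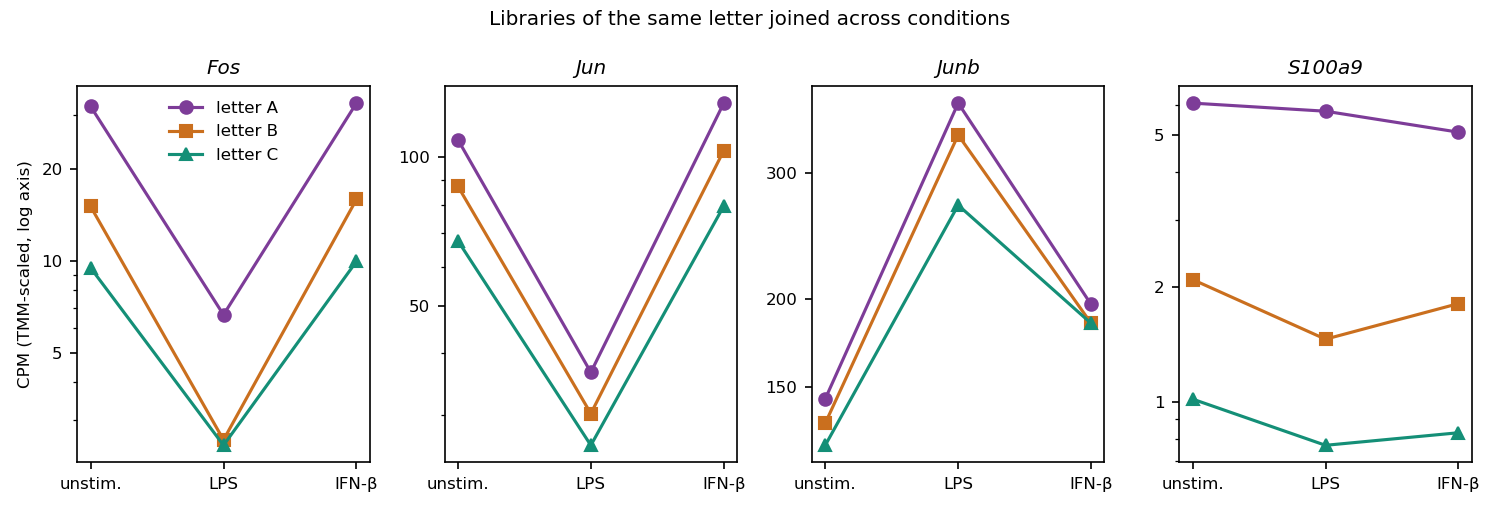
CPM (vertical axes, log scale) of *Fos*, *Jun*, *Junb* and the neutrophil marker *S100a9* in the 3 conditions, with libraries of the same letter joined by a line. The lines of *Jun* run nearly parallel with A on top. Those of *Fos* also have A on top, but B and C nearly meet with LPS, and *S100a9* keeps the same order of letters in each condition.

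Other genes around AP-1 were described by lists, with the counts of calls under scaling by library size alone given beside them. The shares of called genes are to be read against those over all genes tested, which were 68.2% with LPS, 46.9% with IFN-β and 49.1% between the stimuli. Of 31 other bZIP genes tested LPS changed 20, 12 higher and 8 lower (4 and 20 by library size alone), and IFN-β changed 17, 11 higher and 6 lower (4 and 16). These were 64.5% and 54.8% of the list, the first below and the second above the share over all genes. With LPS the highest was *Maf* (log2 fold change 3.02, SE 0.44, adjusted p = 0.00011), whose product is itself a bZIP factor of macrophages, and the lowest was *Nfe2* (-3.70, SE 0.17, adjusted p = 2.6e-08). *Nfe2*, best known from megakaryocytes, was also the lowest with IFN-β (-1.51, adjusted p = 1.8e-05). The highest with IFN-β was *Cebpe* (1.46, SE 0.23, adjusted p = 0.000419). *Mafk* (1.39) and *Maf* (1.25, SE 0.42, adjusted p = 0.0304) lay closer to *Cebpe* than its SE. The list's median log2 fold change was 0.15 with LPS and 0.10 with IFN-β, against -0.04 and -0.02 over all genes. The IFN-β and LPS responses differed for 19 of the 31, 10 higher and 9 lower under IFN-β (14 and 5 by library size alone).

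The MAP kinases phosphorylate Jun and induce *Fos* through ternary complex factors. Of 22 MAP kinase cascade genes tested LPS changed 19, 9 higher and 10 lower (4 and 17 by library size alone), and IFN-β changed 11, 6 higher and 5 lower (4 and 15). The share called was 86.4% with LPS and 50% with IFN-β. The stimuli differed for 14 of them, 8 higher and 6 lower under IFN-β (12 and 4). *Mapkapk2*, a kinase downstream of p38 (2.03, SE 0.09, adjusted p = 1.8e-08), and *Map2k1*, which encodes the ERK kinase MEK1 (2.02, SE 0.11), were the highest with LPS and differed by less than either SE. *Map2k1* was the highest with IFN-β (1.21, SE 0.11, adjusted p = 1.6e-05). *Map2k6*, a kinase of p38, was the lowest with both (-3.47 and -2.18). The median log2 fold changes were -0.12 and -0.02.

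Of 6 serum response factor genes tested, *Srf* with its partners, LPS changed 5, 1 higher and 4 lower (0 and 6 by library size alone), and IFN-β changed 2, both lower (0 and 6), which made 83.3% and 33.3% of the list. *Mrtfb*, a coactivator of SRF, was the lowest with LPS (-1.09, SE 0.08, adjusted p = 4.6e-07). *Elk4* was the 1 gene above 0 among those called (0.15, adjusted p = 0.0421) and was at -0.43 with scaling by library size alone. With IFN-β the called genes were *Srf* (-0.35, adjusted p = 0.0105) and *Mrtfb* (-0.28, adjusted p = 0.0121). Between the stimuli 2 genes differed, both higher under IFN-β, and 5 with the letters as a replicate block, 4 higher and 1 lower. The median log2 fold changes were -0.47 with LPS and -0.16 with IFN-β.

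Other immediate-early genes went both ways, as the AP-1 members did. LPS changed 16 of 19, 8 higher and 8 lower (7 and 11 by library size alone), and IFN-β changed 11, 8 higher and 3 lower (3 and 6), or 84.2% and 57.9% of the list. The stimuli differed for 16 of the 19, 7 higher and 9 lower under IFN-β (9 and 7). *Nr4a3*, an orphan nuclear receptor, was the highest with LPS (2.11, SE 0.13, adjusted p = 1.7e-07), within its SE of *Zfp36* (2.08). *Myc* was the lowest, with 33.7, 37.2 and 43.9 CPM in unstimulated DCs and 3.61, 4.66 and 4.76 CPM with LPS (-3.13, SE 0.17, adjusted p = 6.2e-08), and *Npas4* (-3.05, SE 0.25) lay within its SE. With IFN-β *Klf6* was the highest (1.01, adjusted p = 1.8e-05) and *Klf4* the lowest (-1.21, adjusted p = 0.0224). The median log2 fold changes were 0.03 and 0.19.

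Of 16 textbook AP-1 target genes tested LPS changed 13, 11 higher and 2 lower (8 and 5 by library size alone), and IFN-β changed 10, all higher (6 and 1). The share called was 81.2% with LPS and 62.5% with IFN-β. With the letters as a replicate block IFN-β changed 15, 14 higher and 1 lower, *Mmp9* (-0.28, adjusted p = 0.0122), named after its value was seen. *Ptgs2*, which encodes cyclooxygenase-2, had the highest value with both stimuli. It was read at 1.78 to 2.74 CPM in unstimulated DCs, 2913 to 3328 CPM with LPS and 9.42 to 12.6 CPM with IFN-β, and its log2 fold changes were 10.4 (SE 0.21) and 2.23 (SE 0.17). It could not be ranked apart from *Il6* with LPS (10.2, SE 0.38) or from *Ccnd1* with IFN-β (2.22, SE 0.15), which lay within 1 SE of it. *Plau*, the urokinase gene, was the lowest with LPS (-2.49, SE 0.09, adjusted p = 4.8e-09). With IFN-β *Plau* had the smallest called value (0.23, adjusted p = 0.0341), which was -0.07 by library size alone. The median log2 fold change was 1.72 with LPS and 0.40 with IFN-β. The stimuli differed for 12 of the 16, 3 higher and 9 lower under IFN-β (5 and 8 by library size alone).

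The IRF partners of the Batf proteins separated. *Irf8* was read at 123, 123 and 113 CPM in unstimulated DCs, 444, 460 and 453 CPM with LPS and 211, 204 and 216 CPM with IFN-β. It rose by 1.92 on the log2 scale with LPS (SE 0.07, adjusted p = 4.8e-09) and by 0.81 with IFN-β (SE 0.06, adjusted p = 5.5e-06). *Irf4* fell by 0.43 with LPS (SE 0.10, adjusted p = 0.00283), from 220, 245 and 259 CPM to 160, 189 and 189 CPM, and its IFN-β value was 0.04 (adjusted p = 0.789). *Batf* and *Irf8* thus both rose with LPS, while with IFN-β *Irf8* rose and *Batf* fell.

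**Figure D5:**
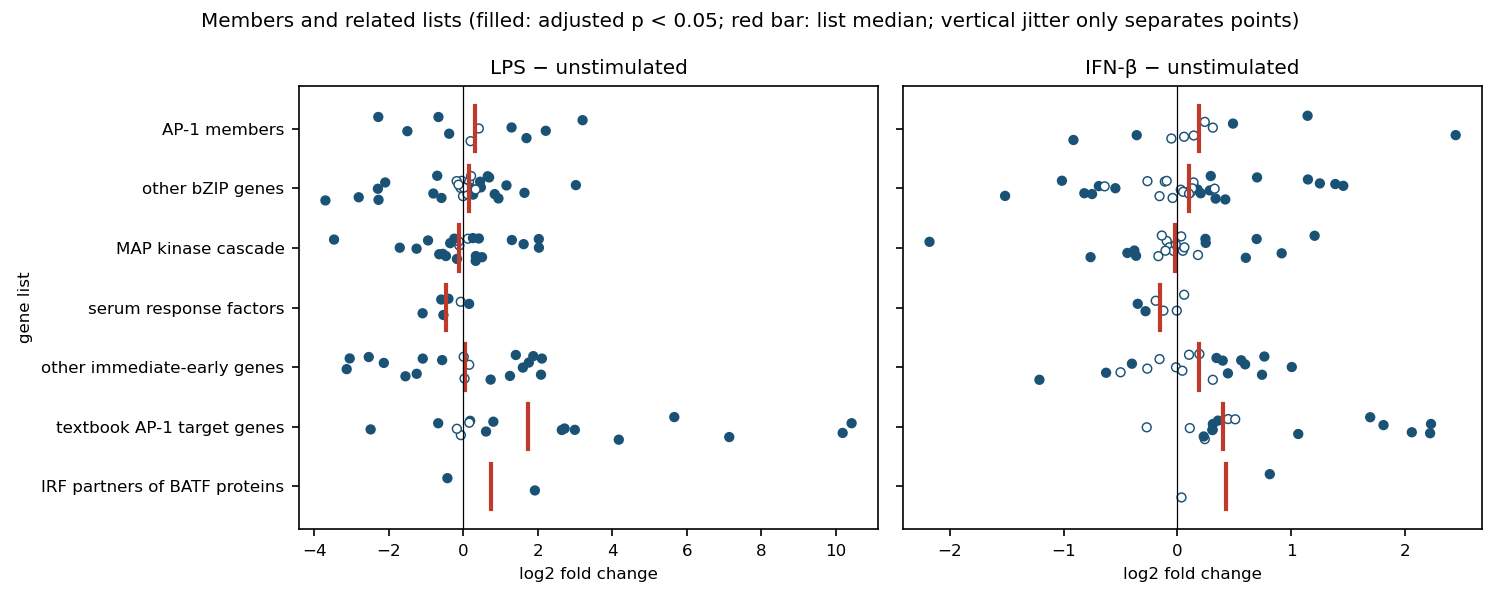
Log2 fold change (horizontal axis) of each tested gene of the AP-1 members and 6 related lists (rows), for LPS and for IFN-β against unstimulated. Filled points were called, red bars are list medians, and the list of textbook AP-1 target genes has medians of 1.72 and 0.40.

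The genes whose log2(CPM + 0.5) ran most alike with each member over the 9 libraries were found by Pearson's r among 12810 genes with a mean of at least 1 CPM. The libraries share 3 conditions and 3 letters, so high values are common and no test was made. For *Fos* they were *Bnip3l* (r = 0.995), *Igf1* (0.993) and *Tmem19* (0.987), and 57 genes reached 0.95. *Jun* ran most alike with *Gpr137b-ps* (0.997), *Tnfrsf23* (0.994) and *Map3k1* (0.994), and *Fosl2* with *Nhp2* (0.995), *Nt5c3b* (0.992) and *Zfp862-ps* (0.990). For *Junb* the genes given are *Zdhhc5* (0.998) and *Sap130* (0.996), and for *Jund* they were *Irf2bp1* (0.970), *Ddx41* (0.95) and *Mpc1-ps* (0.941). *Batf* had *Arhgap35* (0.993), *Rnd3* (0.992) and *Apbb1ip* (0.991), *Batf2* had *Tap2* (0.999), *Chmp4b* (0.998) and *Arid5a* (0.998), and *Batf3* had *Slco4a1* (0.964), *Ceacam15* (0.962) and *Zfp35* (0.962). *Atf3* ran most alike with *Trim30c*, *Slfn2* and *Helz2* (each 0.998). *Batf2* and *Atf3* had the most company, with 1034 and 1103 genes at 0.95 or above, whereas *Fosb* had none, its nearest being *Slc37a3* (0.915), *Gm16867* (0.912) and *Sec22a* (0.893).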

How the data were processed

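RNA was sequenced from unstimulated, LPS-activated and IFN-β-treated WT DCs, with 3 libraries each. Per the labels and methods, libraries were made after removal of ribosomal RNA, trimmed with Trim Galore (0.6.0 in the submitters' processing notes), mapped with STAR (2.7.8a in those notes) and counted per gene, with GRCm38 (mm10) as the genome build. The strand setting is not given in the sources used here. The authors deposited raw counts per gene, without normalization, for 55471 genes, of which 25539 had 0 counts in every library.

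Counts were tested with edgeR 4.0.16 in R 4.3.3: TMM factors, filterByExpr (16260 genes kept), 1 term per condition over all 9 libraries, quasi-likelihood F-tests and Benjamini-Hochberg adjustment over all tested genes. The SE is the absolute log2 fold change divided by the square root of F. Lengths and positions are from GENCODE M21, in which 55144 of the 55471 identifiers had an entry. The edgeR step was tested on simulated counts in which some genes were changed in the LPS libraries. The simulation held no letter effect and no broad shift, so it does not bear on the scaling or the pairing. Intervals cover the spread between libraries, and replicates differed by more than sampling noise (chi-square per degree of freedom 13.0 to 36.5).

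The members and the gene lists were chosen with earlier results of these data known. All members are named, with the called gene of highest and lowest log2 fold change in each list under each stimulus, the next gene where it lay within 1 SE, and the 3 genes most alike to each member. One of the genes most alike to *Junb* is not reported here. Other genes are marked as named after their values were seen, apart from cell type markers. Genes called in the letter test are named as examples.

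The letters are shared by the labels of the 3 conditions, which do not say what they mark. After subtraction of the group means, the 9 same-letter pairs of libraries correlated at 0.134 to 0.546 across genes, all above 0.1, and the letters were therefore taken to pair the libraries. The fit without the letters was kept as the main one, since the study's methods name no replicate term, and a fit with the replicate block was the alternative. The SEs, intervals and exact permutation p-values of the main results thus leave the pairing out. For *Fos* with LPS the SE was 0.58 in the main fit and 0.11 with the block. DESeq2 1.42.0, other scalings and filters, the compared groups alone and each library left out were the further alternatives.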

Additional observations from a re-analysis of the deposited data

How the results depend on the processing

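Of the 21 called log2 fold changes of members, 346 values under the alternatives kept their direction and call, 10 lost the call and 1 turned. The lost calls were *Junb* with IFN-β by library size alone (0.19) and, in the others, *Jund* between IFN-β and LPS. That value was lost without unstimulated library B, without LPS library A or B and without each IFN-β library, ranging from -0.35 to -0.19 over the 9 libraries left out, and it turned to 0.033 by library size alone. The cause was not tested. With the replicate block 9 members were called with LPS, 6 with IFN-β and 8 between the stimuli, where 73.5%, 56.3% and 58.0% of all genes were. The block added the calls of *Jun* with IFN-β (0.24, adjusted p = 0.00187) and of *Jund* with LPS (0.19, adjusted p = 0.0338) and changed no other call of a member. The other calls gained were *Jund* with LPS by DESeq2 (0.23) and without LPS library C (0.29) and, by library size alone, *Jund* with IFN-β (-0.36) and *Fosl2* between the stimuli (0.30). Between the stimuli it raised the called serum response factor genes from 2 to 5.

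The counts of called members were 8 to 9 with LPS, 5 with IFN-β and 7 to 8 between the stimuli when each library was left out. Of all genes tested 63.4% to 67.6%, 38.9% to 46.5% and 41.2% to 48.6% were then called. A threshold of 1 on the absolute log2 fold change left 6, 2 and 3, and the share over all genes was not computed for it. Without the 3 libraries lettered A, an alternative chosen after seeing the data, the counts were 8, 5 and 7, where 63.3%, 39.6% and 43.1% of all genes were called.

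By library size alone the values that turned were *Fos* with IFN-β (-0.23), *Fosb* with LPS (-0.17) and between the stimuli (0.17), *Jun* with IFN-β (-0.059), *Jund* with LPS (-0.39) and *Batf3* with IFN-β (-0.16). The called genes with IFN-β became 19 in the MAP kinase cascade and 6 among the serum response factors, and between the stimuli 5 of the latter. Upper-quartile factors put *Fos* with IFN-β at -0.016, and DESeq2 put *Fosl2* between the stimuli at -0.0069. With a library left out, *Fos* with IFN-β ranged from -0.55 to 0.67, *Fosb* between the stimuli from -0.33 to 0.14 and *Fosl2* between the stimuli from -0.039 to 0.069. None of these member values was called in the main fit, the one without the letters. Of 24 shares with other lengths 22 moved by more than 1 SD. Without division by length the Fos proteins took 31.8% unstimulated, 13.7% with LPS and 19.3% with IFN-β, and the Batf proteins 4.83%, 9.38% and 6.26%, so that the IFN-β libraries then lay above the unstimulated ones in the Batf share. The depth limits *Fosb*, at 12 to 26 counts per library.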
